A study of Homo sapiens with 4 samples.

Results

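RNA from H9 cells was compared between a library made with profiling of DNA (Pre, RNA and DNA) and a library made for RNA only (Pre, RNA only), both with reverse transcription (RT) carried out before tagmentation. These 2 libraries were chosen by their labels from the 4 libraries of the series, and the other 2, made with RT after tagmentation (Post), serve below as a second pair to show where the first differs. H9 is a line of human pluripotent stem cells (hPSCs), labelled as primed, and every library came from it. In the DNA-profiled library, nuclei were also treated for H3K27me3, a mark of polycomb-repressed chromatin, and H3K27ac, a mark of active promoters and enhancers, by antibody-guided Tn5 transposase, which cuts DNA and attaches adapters. Nuclei were lightly fixed and polyadenylated RNA was copied in place. Whether the RNA only libraries passed through the tagmentation steps, and whether the libraries came from separate cultures, is not given in the sources used here. Each condition is 1 library, so differences are described by size, have no replicate check, and could be those of a library as well as of the treatment.

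RT from an oligo(dT) primer copies mRNAs with a poly(A) tail, and RNA without such a tail is copied only where the primer anneals elsewhere. Nuclei hold unspliced precursors and nuclear noncoding RNA in large amounts, while mature cytoplasmic mRNAs, such as those of ribosomal proteins, and mitochondrial transcripts depend on what stays attached to the nucleus. Profiling DNA involves antibody incubation, washes and a warm tagmentation step, which in the Pre order follow RT, and an RNA assay that runs alongside it is judged by how closely its counts follow those of RNA alone.

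The primers are shown because their RT identifier, in capitals, tells the cDNA of the 2 libraries apart. The part before the identifier is common to both, and a random unique molecular identifier of 8 bases and a run of 15 T follow it.
Pre, RNA only: aggccagagcattcgAGCAA
Pre, RNA and DNA: aggccagagcattcgCCTAA

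The Pre, RNA only library held 9379073 counts and the Pre, RNA and DNA library 8960724. The 6 genes whose symbols start with FP236383 or FP671120 have no place in the annotation used and took 12.3% of the first and 10.7% of the second, and each of the 6 had a smaller share with DNA profiling (ratios of shares 0.817 to 0.922). They were left out of the totals, so levels are reads per 1000000 (RPM) of the remaining 8223726 and 8001810 counts, for which 3 counts amount to 0.365 and 0.375 RPM. Log2 ratios are Pre, RNA and DNA over Pre, RNA only after adding 1 RPM to each, and intervals are 95% intervals of counts that cover counting error only. Markers of the labelled cell type were present in both libraries. Among pluripotency factors, POU5F1 stood at 197 and 213 RPM and SOX2 at 147 and 165 RPM in Pre, RNA only and Pre, RNA and DNA, and DNMT3B, a DNA methyltransferase of primed cells, at 641 and 608 RPM. Of markers of other cell types, at most 4 per list reached a mean of 1 RPM (4 of 11 for endoderm, 4 of 12 for mesoderm, 3 of 12 for neuroectoderm, 3 of 12 for trophoblast and amnion, 3 of 10 for fibroblast and blood). The summed levels of these 5 lists lay between 6.93 and 46.5 RPM in Pre, RNA only and between 8.0 and 50.4 RPM in Pre, RNA and DNA.

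Profiling DNA left the RNA counts close to those of RNA only. Over the 2 Pre libraries 12415 genes averaged 10 RPM or more, and with DNA profiling 0 of them were 2-fold or more higher (0%) and 1, RMRP, was 2-fold or more lower (0.00805%). At least 1.5-fold apart were 13 higher (0.105%) and 21 lower (0.169%), and at least 1.25-fold apart, a size added after the data had been seen, 324 higher (2.61%) and 283 lower (2.28%). The counting interval of the ratio lay wholly above 1 for 899 genes (7.24%) and wholly below 1 for 858 (6.91%). In the Post pair, which shares no library with the Pre pair, 12 of the same genes were higher by 2-fold or more (0.0967%) and 257 were lower by that size (2.07%). Post, RNA only was the smallest library. The FP236383 and FP671120 genes took 34.8% of its counts, against 15.8% in Post, RNA and DNA, and left 4151108. Differences in the Post pair cannot be told apart from those of this 1 library.

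The spread of the log2 ratios shrank with the level of the gene but stayed above counting error. The SD was 0.33 for genes of 1 to 10 RPM, where counting error alone gives 0.30, 0.20 against 0.17 from 10 to 30 RPM, 0.13 against 0.10 from 30 to 100 RPM, and 0.10 against 0.06 from 100 to 300 RPM. Above 300 RPM it was 0.085 against 0.034. The excess over counting error was thus largest, relative to it, where the counts were deepest. Of the 6 pairings of the 4 libraries, the Pre pair had the highest Pearson correlation of log2(RPM + 1), 0.994 over 33628 genes, and the smallest SD over 2615 genes of at least 100 RPM, 0.098, against 0.18 to 0.36 for the other 5. Every pairing with Post, RNA only had an SD of 0.31 to 0.36, and every pairing without it 0.23 or less. The median log2 ratio over all genes of at least 10 RPM was -0.0003, and over those of at least 1 RPM, the filter of the gene lists, it was -0.006. Lists are read against the second of these medians.

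**Figure D1:**
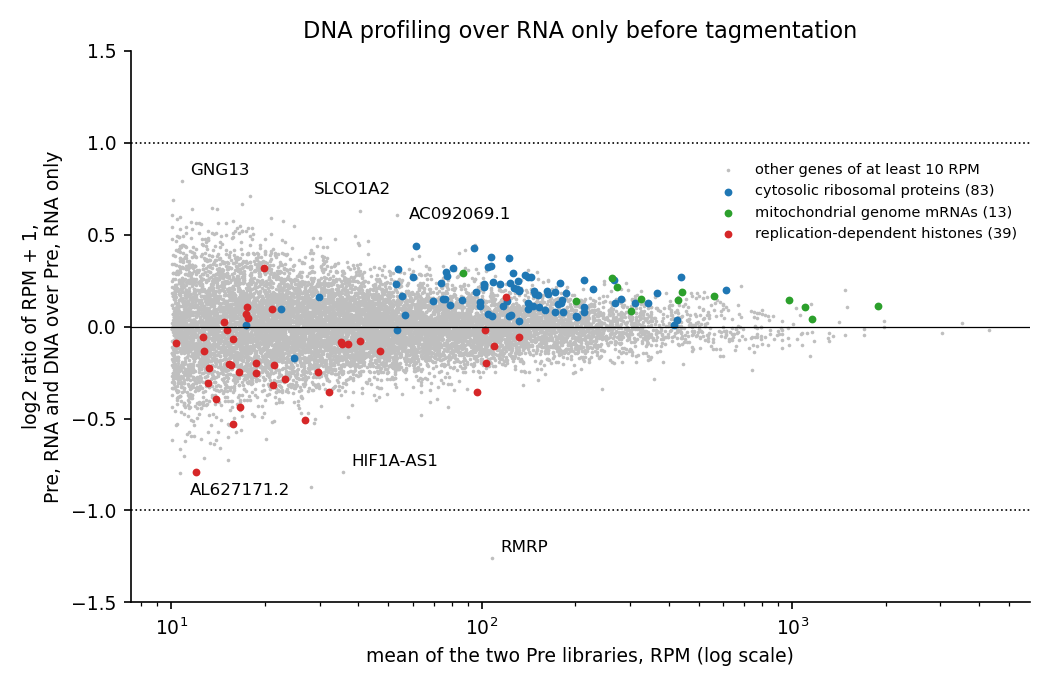
Log2 ratio of RPM + 1, Pre, RNA and DNA over Pre, RNA only, against the mean of the 2 libraries in RPM (log scale), 1 point per gene of at least 10 RPM, with dotted lines at 2-fold. RMRP at -1.26 is the only gene past a dotted line, cytosolic ribosomal protein genes lie mostly above 0 and replication-dependent histones mostly below it.

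RMRP encodes the RNA of the RNase MRP ribonucleoprotein, which takes part in processing of ribosomal RNA precursors and is made by RNA polymerase III without a poly(A) tail. The gene lies on chromosome 9 (GRCh38, chr9:35657754-35658017, minus strand) and is annotated as a ribozyme of 264 bases. In Pre, RNA only RMRP stood at 152 RPM, with an interval of 144 to 161, and in Pre, RNA and DNA at 63.1 RPM, with an interval of 57.7 to 68.9, a log2 ratio of -1.26 and a ratio of 0.414 (0.373 to 0.459). It was lower with DNA profiling in the Post pair too, at 1002 RPM in Post, RNA only and 603 RPM in Post, RNA and DNA, a log2 ratio of -0.73. Both Post libraries were above both Pre libraries. In the Pre pair RMRP was not joined by the other measured members of a list of 42 short noncoding RNAs without a poly(A) tail. Only 3 of the 42, RMRP among them, had an entry in the deposited counts, and all 3 reached 1 RPM. TERC, the telomerase RNA, stood at 3.53 and 4.00 RPM (ratio 1.13, interval 0.664 to 1.94) and SCARNA9, a small Cajal body RNA, at 2.80 and 3.0 RPM (ratio 1.07, interval 0.580 to 1.99) in Pre, RNA only and Pre, RNA and DNA. These values rest on 29 and 32 counts for TERC and 23 and 24 for SCARNA9. In the Post pair both were lower with DNA profiling, as RMRP was. TERC had a log2 ratio of -0.70 there (interval of the ratio 0.388 to 0.871) and SCARNA9 one of -0.73 (0.398 to 0.828). The RMRP transcript is printed because its longest runs of A, in capitals, are only 3 bases, and 13.5% of 62700 canonical transcripts have no longer run.
RMRP: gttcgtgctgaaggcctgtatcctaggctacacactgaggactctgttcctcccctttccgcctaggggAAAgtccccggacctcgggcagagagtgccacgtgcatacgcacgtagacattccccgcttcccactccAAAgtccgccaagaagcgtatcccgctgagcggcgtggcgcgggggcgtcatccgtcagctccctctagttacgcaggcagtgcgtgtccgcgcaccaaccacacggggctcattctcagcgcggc

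The other genes past 1.5-fold were of low level, and RMRP was the 1 gene of at least 50 RPM among the 21 lower (0.0199% of 5014 genes). AL627171.2, a gene named after a clone and without a place in the annotation used, stood at 36.7 RPM and 19.6 RPM in Pre, RNA only and Pre, RNA and DNA (log2 ratio -0.87, ratio 0.534, interval 0.438 to 0.650), and was lower with DNA profiling in the Post pair as well (137 and 54.2 RPM, log2 ratio -1.33). HIF1A-AS1, a noncoding RNA antisense at the locus of the hypoxia factor HIF1A, stood at 45.5 and 25.9 RPM (log2 ratio -0.79). It went the other way in the Post pair, at 31.3 and 40.3 RPM (0.35). Also lower in the Pre pair were CACNG4, a regulatory subunit of calcium channels and glutamate receptors (15.8 and 8.25 RPM, -0.86), KIF17, a kinesin motor (19.2 and 11.2 RPM, -0.72), and BCAM, a laminin receptor (16.1 and 9.37 RPM, -0.72).

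Among the 13 genes at least 1.5-fold higher, 1 had a mean of at least 50 RPM (0.0199%). This was AC092069.1, also without a place in the annotation, at 42.0 RPM in Pre, RNA only and 64.5 RPM in Pre, RNA and DNA (log2 ratio 0.61, ratio 1.54, interval 1.34 to 1.77). SLCO1A2, an organic anion transporter, stood at 31.6 and 49.5 RPM (0.63). HSPB1, a small heat shock protein, stood at 16.5 and 25.4 RPM (0.59) and was lower with DNA profiling in the Post pair, at 25.5 and 13.9 RPM (-0.83). The largest ratio was that of GNG13, a G protein gamma subunit, at 7.66 and 14 RPM (0.79). GNG13 lies on the minus strand of chromosome 16 from 798041 to 800734, inside CHTF18 on the plus strand (788046 to 800737), a gene of sister chromatid cohesion at 12.8 and 20.9 RPM (0.67). The strand setting of the counting is not given in the sources used here, so the reads of these 2 genes cannot be told apart.

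**Figure D2:**
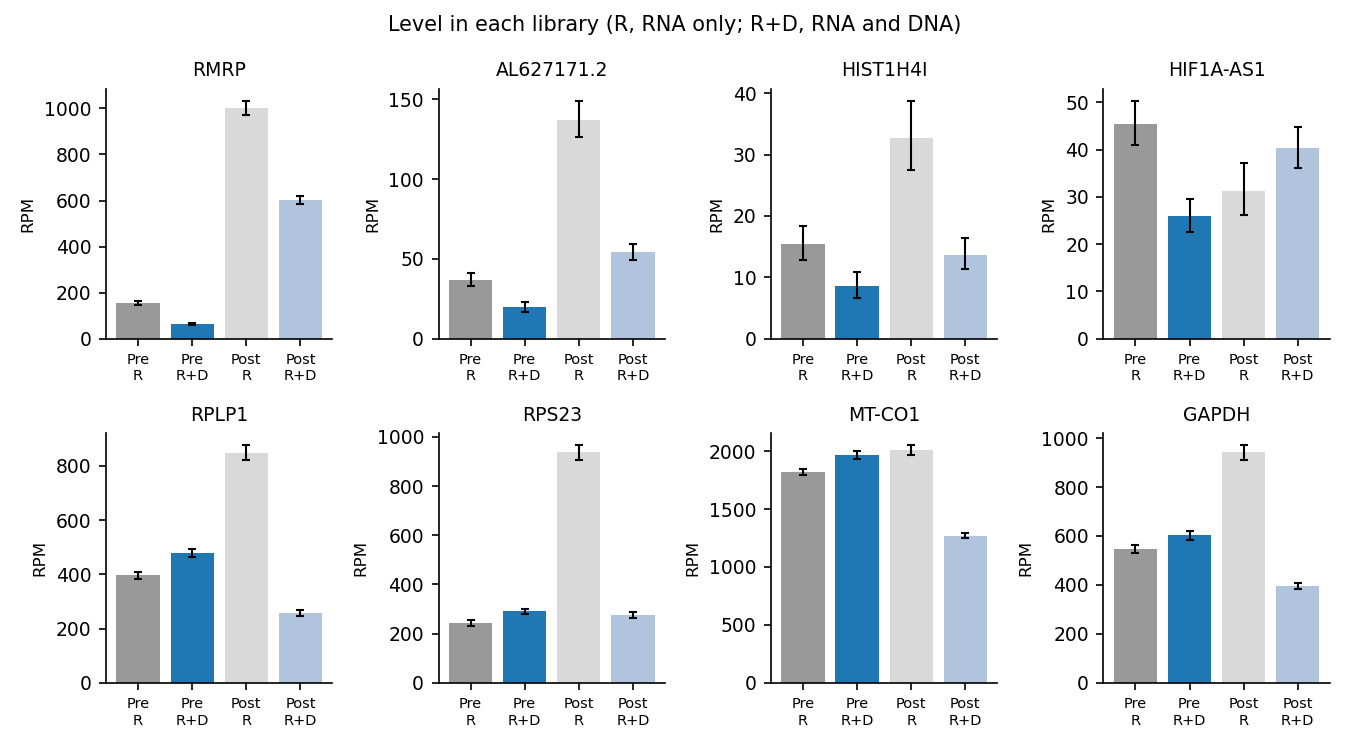
Level in RPM of 8 genes in each of the 4 libraries (R, RNA only; R+D, RNA and DNA), with bars from 0 and 95% counting intervals. RMRP, AL627171.2 and HIST1H4I were lower with DNA profiling in both pairs, while RPLP1, RPS23, MT-CO1 and GAPDH were higher in the Pre pair and lower in the Post pair.

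Replication-dependent histones lay mostly below the median of all genes. These genes supply the nucleosomes of S phase, and their mRNAs mostly end in a stem-loop in place of a poly(A) tail. All 60 of the listed genes found in GENCODE had the histone stem-loop in any of their annotated transcripts. For all genes only canonical transcripts were searched, and 0.134% of these had it, so the 2 shares are not like for like. In some histone genes the annotated transcript runs on past the stem-loop, by 1862 bases for HIST1H3E and 1729 for HIST2H2BE. The 9 sequences found differ in a few letters, and the most frequent, together with those of the members described next, are shown with the arms of the stem in capitals.
Most frequent form, 36 genes: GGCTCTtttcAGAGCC
HIST1H4C (chr6:26104317-26104332, plus strand): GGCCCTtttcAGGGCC
HIST1H4I (chr6:27139654-27139669, plus strand): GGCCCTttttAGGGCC

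Of 62 measured replication-dependent histones, 12 lay above the median of all genes of at least 1 RPM (50% of 22155 by definition), the list median was -0.18, and their summed level went from 1546 to 1398 RPM (ratio 0.904, interval 0.882 to 0.928). At least 1.5-fold lower were 6 (1.9% of all genes at this filter), and 0 were at least 1.5-fold higher (1.72%). Of the 6, only HIST1H4I averaged 10 RPM or more. The others stood at 7.30 RPM or less in Pre, RNA only, a level at which counting error is large. At least 1.25-fold lower were 16 (8.64%) against 1 higher (7.79%). HIST1H4I, an H4 gene, stood at 15.4 and 8.50 RPM in Pre, RNA only and Pre, RNA and DNA (log2 ratio -0.79). HIST1H1D, a linker histone gene, stood at 111 and 96.1 RPM (-0.20, interval of the ratio 0.789 to 0.958). The most abundant member, HIST1H1B, differed by less than its counting error, at 134 and 129 RPM (ratio 0.962, interval 0.883 to 1.05), and HIST1H4C was higher, at 113 and 127 RPM (ratio 1.12, interval 1.02 to 1.22). In the Post pair the list median was -1.06. Histone genes have near-identical copies, so the split of reads among them is uncertain.

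Replacement histones, which are made throughout the cell cycle from mostly polyadenylated mRNAs, lay on the other side. Their median was 0.10, with 7 of 10 above the median of all genes and a summed level of 703 and 752 RPM (ratio 1.07, interval 1.03 to 1.11). H3F3B, an H3.3 gene, stood at 106 and 122 RPM (0.20) and H2AFZ, the H2A.Z gene, at 87.1 and 92.7 RPM (0.09). Of the 10 genes, 0 were at least 1.25-fold apart, a count that says little in a list of this size, since 7.79% of all genes were higher and 8.64% lower by that much.

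Ribosomal protein mRNAs were slightly and broadly higher with DNA profiling. All 33 measured small subunit genes exceeded the all-gene median, with a median log2 ratio of 0.20 and a summed level of 4484 and 5167 RPM (ratio 1.15, interval 1.14 to 1.17). Of 51 large subunit genes 49 did, with a median of 0.15 and a summed ratio of 1.11 (1.09 to 1.12). RPS23 stood at 243 and 290 RPM (0.25) and RPLP1, an acidic stalk protein, at 396 and 478 RPM (0.27). Only 5 small subunit genes and 1 large subunit gene were at least 1.25-fold higher (7.79% of all genes at this filter), so the shift was of many genes by a small amount. The counting interval lay wholly above 1 for 24 of 33 and 28 of 51 genes and wholly below 1 for 0, where 13.5% of all 2612 genes of at least 100 RPM lay above and 13.5% below. The large subunit genes RPL4 and RPL6 stayed near equal, at 414 and 416 RPM (0.01) and 419 and 429 RPM (0.04). In the Post pair the same lists had medians of -1.35 and -1.13. These genes have many pseudogenes, among which reads can be split.

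The mRNAs of the mitochondrial genome were higher too. All 13 had a counting interval wholly above 1, by a narrow margin for MT-ND5. Of all 12415 genes of at least 10 RPM 7.24% did, and of the 2612 of at least 100 RPM 13.5%. The median of the 13 was 0.14, with a range of 0.04 to 0.29 and a summed level of 7659 and 8360 RPM (ratio 1.09, interval 1.08 to 1.10). MT-CO1, a core subunit of cytochrome c oxidase, stood at 1820 and 1967 RPM (0.11), MT-ND4, of complex I, at 928 and 1025 RPM (0.14) and MT-ND5 at 1139 and 1172 RPM (0.04). In the Post pair their median was -0.62. A list of mitochondrial rRNAs and their nuclear copies did not follow, but its 4 measured members were all nuclear copies. Their median was -0.22, with 1 of 4 above the median of all genes. The summed ratio of the list was 0.949 (0.865 to 1.04). MTRNR2L8 was lower, at 27.8 and 22.1 RPM (ratio 0.794, interval 0.649 to 0.971). The most abundant, MTRNR2L12, stood at 81.0 and 83.0 RPM (ratio 1.02, interval 0.919 to 1.14). The 76 nuclear genes of oxidative phosphorylation had a median of 0.09 with 63 above the median of all genes, and 9 were at least 1.25-fold higher and 0 lower, where 7.79% and 8.64% of all genes were. COX5B, a cytochrome c oxidase subunit, stood highest among them at 18.1 and 27.5 RPM (0.58), whereas NDUFA10, of complex I, stood at 69.6 and 66.1 RPM (-0.07). Mitochondrial ribosomal proteins had a median of 0.08, with 62 of 77 above.

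**Figure D3:**
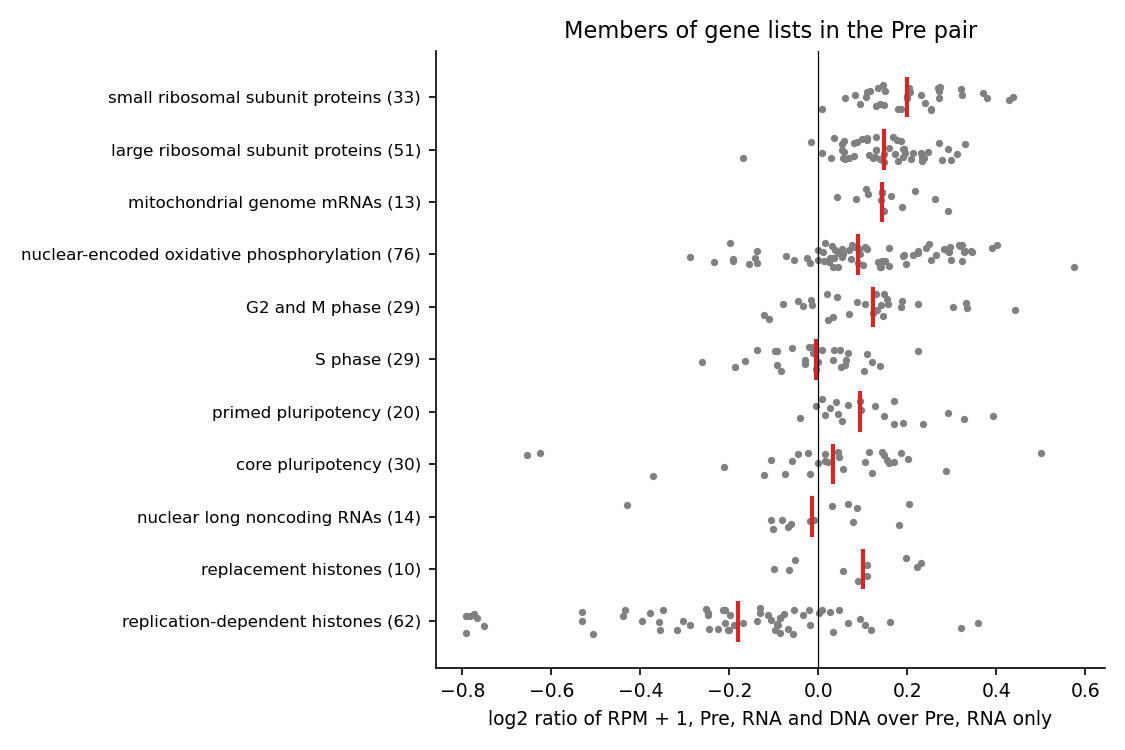
Log2 ratio of RPM + 1, Pre, RNA and DNA over Pre, RNA only, of each member with a mean of at least 1 RPM in 11 gene lists, with the number of members in brackets and the list median as a red line. Medians run from 0.20 for small ribosomal subunit proteins to -0.18 for replication-dependent histones, and in most lists members lie on both sides of 0.

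Other abundant housekeeping mRNAs shifted the same small way. Medians were 0.12 for heat shock proteins (18 of 19 above the median of all genes), 0.08 for proteasome subunits (26 of 31), 0.07 for translation factors (31 of 35) and 0.05 for glycolysis and glucose transport (15 of 21). HSP90AB1, a cytosolic chaperone, stood at 1382 and 1585 RPM (0.20), EIF4G1, a translation initiation scaffold, at 400 and 444 RPM (0.15) and GAPDH, of glycolysis, at 545 and 602 RPM (0.14). ACTB, the beta actin gene, went the other way, at 797 and 740 RPM (-0.11). It was the lowest of the actin and tubulin list, which had a median of 0.06 with 16 of 20 above.

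Cell cycle lists did not move together. The 29 genes of G2 and M phase had a median of 0.12 with 22 above the median of all genes, and CDC20, an activator of the anaphase-promoting complex, at 34.0 and 46.6 RPM (0.44), and PLK1, a mitotic kinase, at 31.7 and 39.4 RPM (0.30), were among the higher. TPX2, a spindle assembly factor, was lower at 168 and 154 RPM (-0.12). The 29 S phase genes had a median of -0.006 with 15 above, and MCM4, of the replicative helicase, stood at 211 and 211 RPM. Of the S phase genes 0 were at least 1.25-fold apart (7.79% of all genes higher and 8.64% lower).

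Most pluripotency genes differed little. The core list had a median of 0.03, with 19 of 30 above the median of all genes, and its summed level was 8007 and 8143 RPM (ratio 1.02, interval 1.01 to 1.03). TERF1, a telomere-binding protein, stood at 485 and 552 RPM (0.19) and ESRG, a noncoding RNA of hPSCs, at 500 and 459 RPM (-0.12). The members farthest from 0 were of low level. At least 1.5-fold lower were 2 of 30 (1.9% of all genes), NODAL at 6.08 and 3.50 RPM (-0.65) and DPPA2 at 4.01 and 2.25 RPM (-0.62), and the highest was FOXD3 at 2.80 and 4.37 RPM (0.50). Genes of primed pluripotency had a median of 0.09 with 19 of 20 above, among them ZIC2, a zinc finger factor, at 32.0 and 39.4 RPM (0.29) and SOX11 at 58.4 and 73.5 RPM (0.33). The 11 measured genes of naive pluripotency had a median of -0.004 with 6 above.

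The machinery of the profiled marks differed little. Polycomb repressive complex 2, which writes H3K27me3, had a median of 0.02 (7 of 13 above the median of all genes), polycomb repressive complex 1 a median of -0.02 (11 of 22) and the genes of H3K27 acetylation, its readers and H3K27 demethylation a median of -0.03 (7 of 15). The counting interval lay wholly below 1 for KDM2B, which recruits polycomb repressive complex 1 to CpG islands, at 246 and 223 RPM (-0.14), and for the H3K27 demethylase KDM6A at 317 and 290 RPM (-0.13). EP300, a histone acetyltransferase, stood at 239 and 232 RPM (ratio 0.971, interval 0.911 to 1.03).

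A list drawn up as nuclear long noncoding RNAs had a median of -0.01, with 6 of 14 above the median of all genes. Where its members lie in the cell was not measured. Very long genes had a median of 0.02, with 24 of 37 above. MALAT1, a nuclear speckle RNA, stood at 1958 and 2000 RPM (0.03), SNHG14 at 4330 and 4274 RPM (-0.02) and XACT, a noncoding RNA of hPSCs, at 1976 and 1975 RPM (-0.001). The long gene PTPRG, a receptor tyrosine phosphatase, stood at 3072 and 2996 RPM (-0.04). Among the listed noncoding RNAs the counting interval lay wholly above 1 for NORAD, at 196 and 226 RPM (ratio 1.15, interval 1.08 to 1.23), and TUG1, at 143 and 163 RPM (ratio 1.14, interval 1.05 to 1.23). It lay wholly below 1 for PVT1, at 1008 and 939 RPM (ratio 0.932, interval 0.903 to 0.961), FTX, at 1327 and 1272 RPM (ratio 0.959, interval 0.933 to 0.985), and, by a narrow margin, JPX, at 464 and 443 RPM (ratio 0.955).

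**Figure D4:**
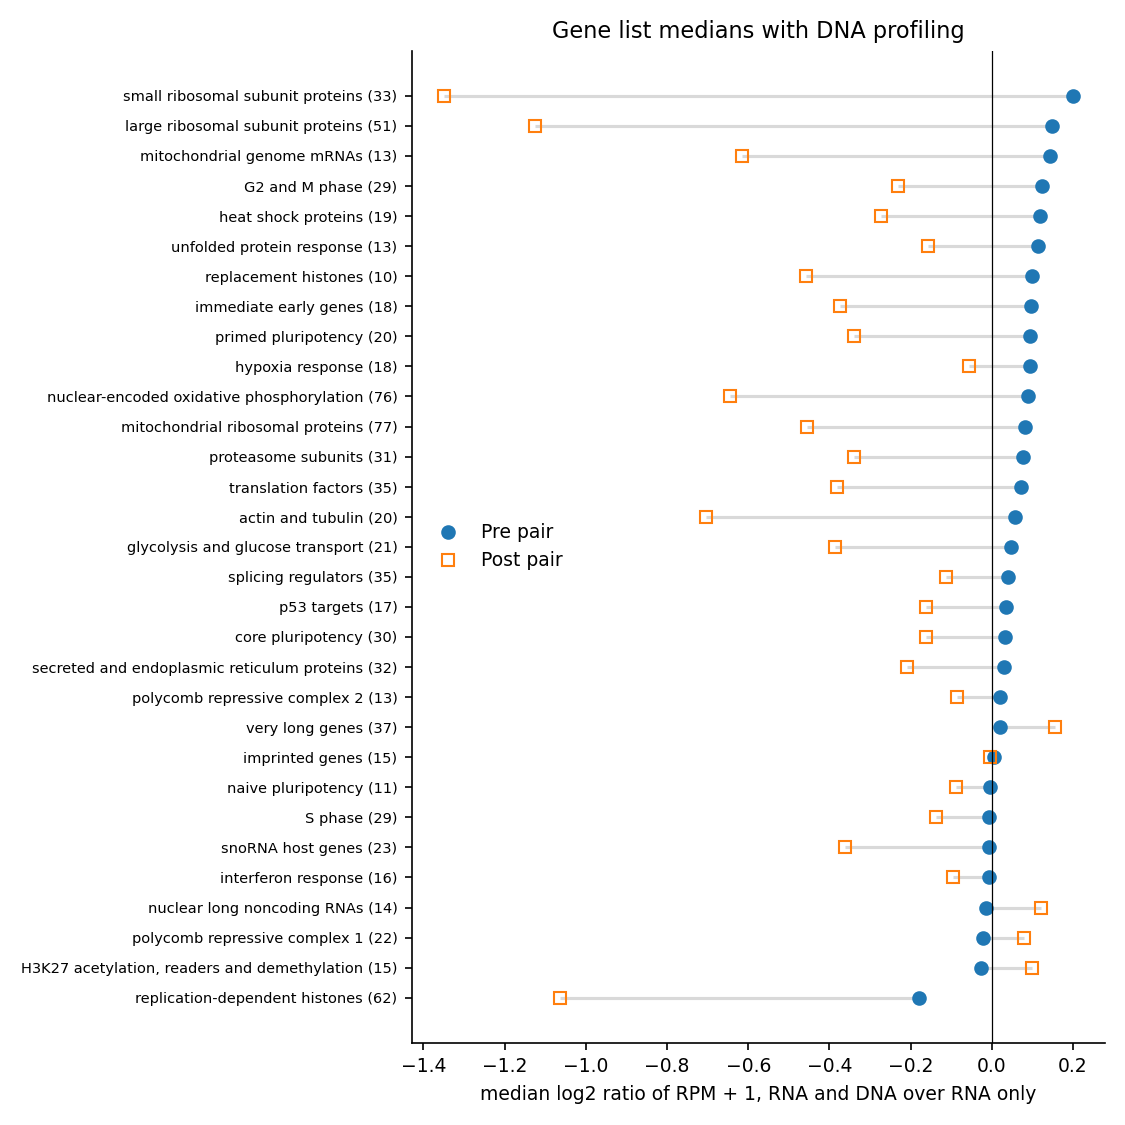
Median log2 ratio of RPM + 1, RNA and DNA over RNA only, of each gene list with at least 5 measured members (number in brackets), in the Pre pair (filled circles) and the Post pair (open squares). Pre medians run from -0.18 to 0.20, and most lists that lie above 0 in the Pre pair lie below 0 in the Post pair.

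The small differences varied with gene length. In 5 bins of equal size by gene length, over the 11150 genes of at least 10 RPM with a place in GENCODE, the median log2 ratio went from 0.073 in the shortest to 0.013, -0.011, -0.020 and -0.027 in the longest. The all-gene median was exceeded by 66.7% of genes in the shortest bin and by 39.5% in the longest. Without the 68 cytosolic ribosomal protein genes the shortest bin had a median of 0.066. Spliced length gave a smaller range, 0.024 to -0.012, and 5 bins of GC content ranged from 0.027 to -0.028. In the Post pair the medians by gene length ran the other way, from -0.33 to 0.18. Across 2612 genes of at least 100 RPM, the log2 ratios of the Pre and Post pairs had a Pearson correlation of -0.51, and 1806 genes lay on opposite sides of their pair medians. Genes are not independent replicates and share library composition, so this is a description of 4 libraries.

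**Figure D5:**
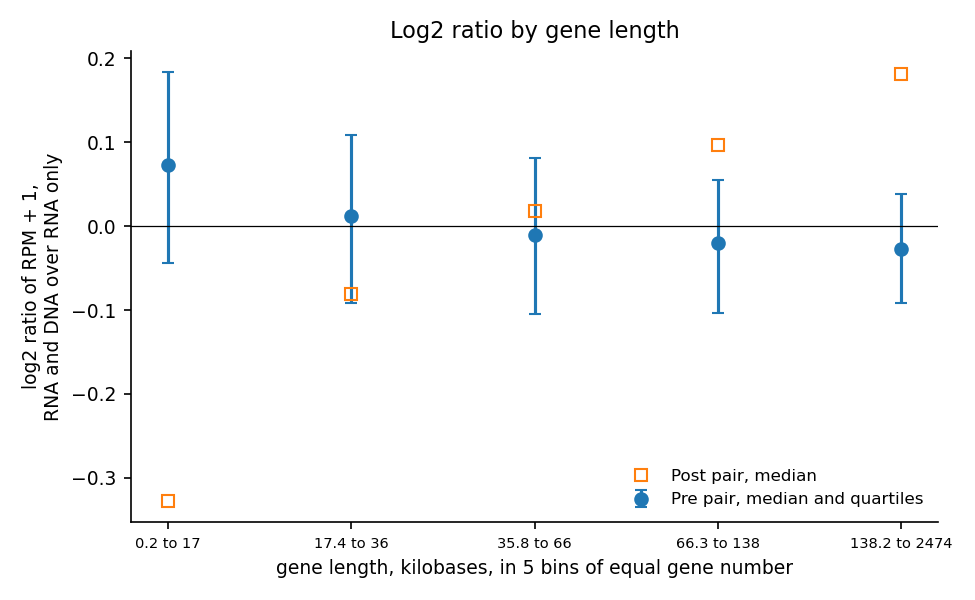
Median log2 ratio of RPM + 1, RNA and DNA over RNA only, in 5 bins of genes by gene length in kilobases, for the Pre pair (circles with quartiles) and the Post pair (squares). The Pre medians fall from 0.073 to -0.027 while the Post medians rise from -0.33 to 0.18, and the quartiles of the Pre pair overlap between all bins.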

How the data were processed

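RNA was measured in 4 libraries of H9 cells, 1 per condition, of which the 2 Pre libraries were compared. The authors deposited whole-number counts for each gene symbol, made from deduplicated reads on GRCh38. The submitters' processing notes name STAR 2.7.11b, Bowtie2 2.5.3, SAMtools, Trim Galore 0.6.10 and Bowtie 1.3.1, and the annotation and strand setting are not given in the sources used here. Columns were tied to samples by the RT number, and 60 other columns, which no label assigns, stayed unused.

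Levels are RPM over totals without the 6 FP236383 and FP671120 genes, and log2 ratios were taken with a pseudocount of 1 RPM. Genes had to average 10 RPM across the 2 Pre libraries, and list members 1 RPM. With 1 library per condition there is no test across genes, and calls are by size (2-fold and 1.5-fold). Intervals are exact 95% intervals (Poisson for RPM, conditional binomial for ratios) and cover counting error only. Total counts set the precision.

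The genes named are those 1.5-fold apart at 50 RPM or more, those 2-fold apart, those above 1000 RPM, the 4 most abundant members of each of 39 lists, and up to 8 per direction whose interval lay farthest from 1. POU5F1, SOX2, TERF1, ESRG, NODAL, DPPA2, ZIC2, SOX11, CDC20, PLK1, TPX2, FOXD3, NORAD, TUG1, JPX, POLR2J2 and ARL14EPL fall outside this rule and were chosen after their values were seen. The pair, lists and rules were chosen with earlier results of these data known. Symbols were matched to GENCODE 44 for place, of which 21894 matched as written, 512 by a former symbol and 11234 not at all. The alternatives were other scalings, filters and pseudocounts, thinning, and protein-coding genes only. The size rule was tested on simulated data. The tools were edgeR 4.0.16 in R 4.3.3 (scaling factors only) and, in Python 3.11.15, scipy 1.17.1, pandas 2.3.3, matplotlib 3.10.9 and numpy 2.4.6. A few items are not reported here.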

Additional observations from a re-analysis of the deposited data

Results flagged for a closer look

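Of the gene lists with at least 5 measured members, 9 had medians at least 0.1 (log2) from the median of all genes of at least 1 RPM (-0.006 in the Pre pair and 0.019 in the Post pair) in both pairs and on opposite sides, higher with DNA profiling in the Pre pair and lower in the Post pair. The Post median minus the Pre median was -1.55 for small ribosomal subunit proteins, -1.27 for large ribosomal subunit proteins and -0.76 for mitochondrial genome mRNAs. It was -0.56 for replacement histones, -0.47 for immediate early genes, -0.43 for primed pluripotency, -0.39 for heat shock proteins, -0.35 for G2 and M phase and -0.27 for the unfolded protein response. Of the immediate early genes only 11 of 18 lay above the median in the Pre pair, and 4 were at least 1.25-fold lower against 1 higher.

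Among single genes, 4 were at least 1.5-fold apart in both pairs in opposite directions. The Post log2 ratio minus the Pre log2 ratio was -2.12 for ARL14EPL (0.65 in the Pre pair and -1.47 in the Post pair), -1.42 for HSPB1 (0.59 and -0.83), -1.22 for AC092069.1 (0.61 and -0.61) and 1.35 for POLR2J2 (-0.60 and 0.75). With 1 library per condition these differences between the pairs were not tested.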

How the results depend on the processing

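No paired analysis was possible because each condition has 1 library and no library can be left out. Counts of genes depended on the filter and the pseudocount. With a mean of at least 1 RPM, 17 genes were higher by 2-fold or more and 24 lower, and 381 and 422 at least 1.5-fold, with a median of -0.0065 and a correlation of 0.993. With 50 RPM, 1 gene was 1.5-fold or more higher and 1 lower (median -0.0038, correlation 0.993). A pseudocount of 0.1 RPM gave 23 genes at least 1.5-fold higher (correlation 0.980), and one of 5 RPM gave 1 higher and 5 lower (0.997). With protein-coding genes only, which leaves out RMRP, 0 were at least 2-fold lower, and 8 and 13 at least 1.5-fold higher and lower (SD 0.094, correlation 0.995). Totals over all genes, which also raise the RPM filters in effect, gave 11 at least 1.5-fold lower, a median of 0.026, an SD of 0.093 over a set of genes without RMRP, and a correlation of 0.995. The median was 0.0081 with TMM and -0.00687 with median-of-ratios, both brought to the mean size of the reported totals. A limit of 1.25-fold, chosen after seeing the data, gave 324 and 283.

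Of the lists whose median lay at least 0.1 from that of all genes, 135 of 137 values under the alternatives kept their sign. The size of 0.1 itself was not kept by all. The median ranged from 0.066 to 0.14 for immediate early genes, from 0.054 to 0.12 for primed pluripotency and from 0.093 to 0.13 for replacement histones. For replication-dependent histones it ranged from -0.21 to -0.081. Among lists of 3 measured members, it ranged from 0.080 to 0.63 for HOX cluster genes and from -0.25 to -0.068 for neuroectoderm markers. With a filter of 50 RPM, the list of mitochondrial rRNAs and nuclear copies, measured by nuclear copies only, turned from -0.22 to 0.035. The hypoxia response list turned from 0.094 to -0.036. The causes were not tested beyond these constructions.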

Other observations

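The interferon-induced transmembrane genes IFITM1, IFITM2 and IFITM3, which restrict virus entry and are neighbours on chromosome 11, stood at 21.4 and 26.4, 41.5 and 48.2, and 27 and 29.7 RPM in Pre, RNA only and Pre, RNA and DNA. The counting interval of the ratio lay just above 1 for IFITM1 (1.00 to 1.51) and IFITM2 (1.00 to 1.35) and not for IFITM3 (0.914 to 1.33). The interferon response list as a whole had a median log2 ratio of -0.008, with 8 of 16 above the median of all genes. HFM1, a meiotic helicase gene, stood at 1201 and 1074 RPM (log2 ratio -0.16), and at 6060 and 2350 RPM in Post, RNA only and Post, RNA and DNA.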
